A study of Mus musculus with 6 samples.

Results

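Cd79a, Cd79b, Ms4a1, Ptprc, Ccr7 and Cd83 are 6 genes known from B cells and other lymphocytes, and they were measured among 12067 genes in sorted mouse muscle stem cells. All 6 rows were taken by gene symbol, whatever their level. The genes were chosen by their measured RPKM (reads scaled to gene length and library size), since earlier results of these same data showed several of them higher in old cells low in glutathione than in those high in glutathione. Their values in that comparison are therefore given without a test.

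Muscle stem cells, also called satellite cells, are the resident cells that rebuild muscle fibres. They were isolated from limb muscles of male C57BL/6 mice, for which the labels name no mutation or transgene, as cells negative for CD45 (leukocytes), CD31 (endothelium) and Sca1 and positive for VCAM, then stained with 5 uM ThiolTracker Violet, a dye for reduced glutathione (GSH), and sorted again. The old GSH-low and old GSH-high groups are the dim and the bright part of the cells of mice of 23 months, with 2 animals pooled in each library, and the young group is the whole population of mice of 4 months, nearly all of it GSH-high, with 1 animal in each library. Each group has 2 libraries. The labels do not say whether an old GSH-low and an old GSH-high library came from the same pool of animals.

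A B cell binds antigen through a membrane antibody that cannot signal by itself. The Igα and Igβ chains, encoded by Cd79a and Cd79b, form a pair beside that antibody and carry the tyrosine motifs that SRC-family kinases and then SYK use to start signalling, while co-receptors such as CD22 set its strength. CD20, the product of Ms4a1, sits in the membrane of mature B cells. CD45, the product of Ptprc, is a membrane phosphatase of all leukocytes that keeps SRC-family kinases ready, and it is the antigen by which the sort removed leukocytes. CCR7 is the receptor through which lymphocytes and mature dendritic cells follow the chemokines CCL19 and CCL21 into lymphoid tissue. CD83 is a surface protein of activated B cells, mature dendritic cells and thymic epithelium.

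The reads behind the deposited values could be recovered, and came to 50.69 M and 46.98 M in the old GSH-low libraries, 68.76 M and 60.73 M in the old GSH-high libraries and 63.09 M and 60.03 M in the young libraries. A count of 0 allows up to 3 reads, or 0.0436 to 0.0639 CPM (recovered reads scaled to library size) by library, a limit that covers counting error only. The labelled cell type was found in every library: Pax7, the transcription factor that defines satellite cells, had 11.2 and 12.6 RPKM in old GSH-low, 8.09 and 8.65 RPKM in old GSH-high and 7.93 and 7.64 RPKM in young cells, and Vcam1, the antigen of the positive gate, lay between 169.9 and 206.8 RPKM. Replicates correlated at r = 0.993 to 0.995 over the 10609 genes tested. Every p-value below rests on 2 libraries per group with 3 residual degrees of freedom, and the spread between old libraries is one between pools, not between single animals.

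**Figure D1:**
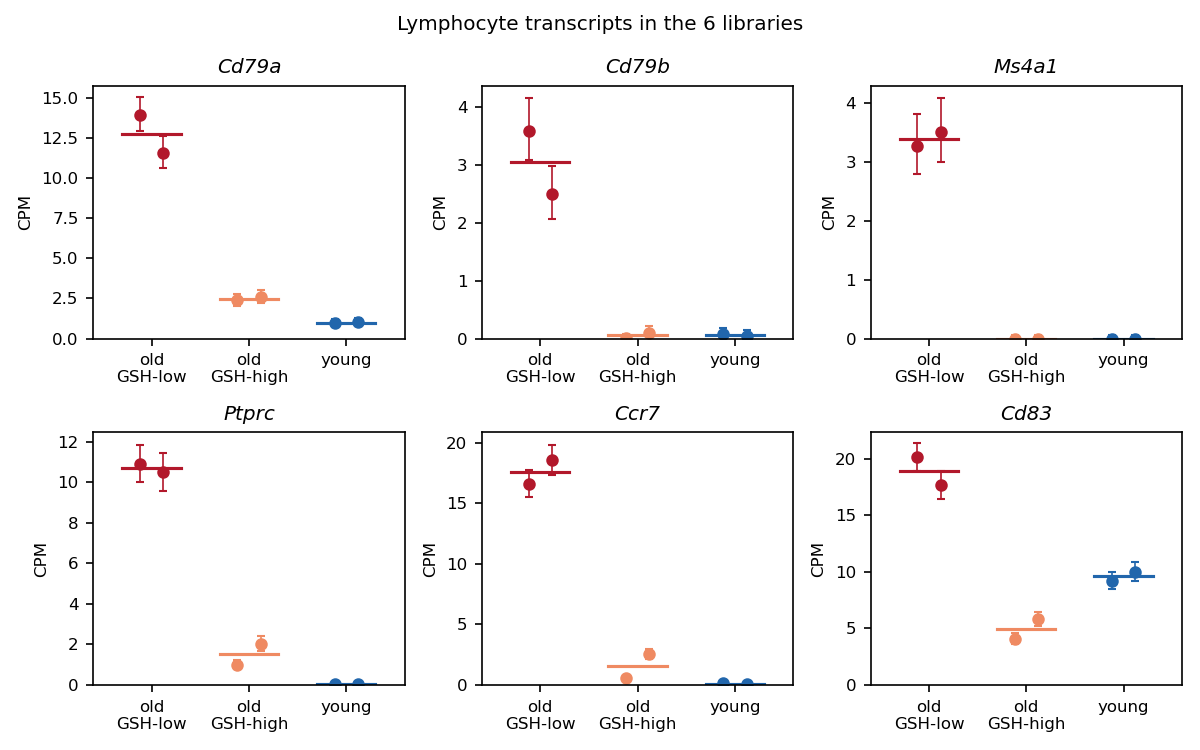
CPM (vertical axis) of the 6 genes in each library, by group. Points are libraries with the exact 95% Poisson interval of their own reads, and the horizontal line is the mean of the 2 libraries. Both old GSH-low libraries stand above all others for each gene, Ms4a1 has reads in old GSH-low alone, and Cd83 alone has both old GSH-high libraries below both young libraries.

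Among the receptor chains, Cd79a (Igα; chromosome 7, 24897381 to 24902197 of GRCm38, plus strand) had 9.45 and 7.76 RPKM in old GSH-low, 1.63 and 1.73 RPKM in old GSH-high and 0.689 and 0.701 RPKM in young cells. These are 707 and 544 reads, 164 and 156 reads, and 61 and 60 reads. The 3 groups did not overlap and stood in that order. In reads pooled over the libraries of a group and scaled to library size, old GSH-low held 5.15 times the Cd79a level of old GSH-high (exact 95% interval 4.55 to 5.84, counting error only). In bulk RNA such as this, fewer cells of a type and less RNA per cell cannot be told apart.

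The upstream sequence of Cd79a is printed because the Ebf1 transcript, which encodes a factor known to activate this gene in mouse B cells, also differed between the groups, as given further on. The stretch ends at the base before the annotated gene start and comes from RefSeq (GRCm38.p6, chr7:24897247-24897380, plus strand), with the letters that match one arm of an EBF1 site, CNNGGGAA, in capitals.
Cd79a: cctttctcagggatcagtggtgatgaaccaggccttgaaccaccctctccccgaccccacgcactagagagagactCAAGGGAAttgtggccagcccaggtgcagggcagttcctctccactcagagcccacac
The match starts 58 bases before the gene. The one-arm pattern, taken up after the sequence had been seen and searched on both strands like the others, was in 21.4% of 32851 RefSeq windows of 300 bases (250 before and 50 after a start). The core of the full palindrome, CCCNNGGG, which shares the stretch CNNGGG (N being any base) with it, was in 13.7% of windows and not in that of Cd79a. Nor did the Cd79a window hold the octamer ATGCAAAT of B-cell promoters (1.74% of windows) or the PU.1 letters GAGGAAGT (3.20%). Of the 6 genes, RefSeq windows matched Cd79a (1) and Ptprc (2), and none of the 4 patterns was in those of Ptprc. A match describes letters and is not shown to be a bound site.

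Cd79b (Igβ; chromosome 11, 106311341 to 106314762, minus strand) had 2.48 and 1.70 RPKM in old GSH-low, 0.0101 and 0.0678 RPKM in old GSH-high and 0.0575 and 0.0357 RPKM in young cells. This is 182 and 117 reads in old GSH-low, 1 and 6 reads in old GSH-high and 5 and 3 reads in young cells. Old GSH-low stood apart from both other groups, and those overlapped at a few reads per library. The pooled level in old GSH-low was 56.3 times that in old GSH-high, with a counting interval of 27.0 to 141.2.

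Cd79a exceeded Cd79b in every library, by more outside old GSH-low. Cd79a RPKM was 3.82 and 4.57 times Cd79b RPKM in the old GSH-low libraries, 161.1 and 25.5 times in old GSH-high and 12 and 19.6 times in young cells. The Cd79a reads of the old GSH-high and young libraries thus came with fewer reads of the partner gene, length for length, than those of old GSH-low. The denominators there rest on 1 to 6 reads, and the annotated gene after Cd79a, Arhgef1, starts 714 bases past its end.

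**Figure D2:**
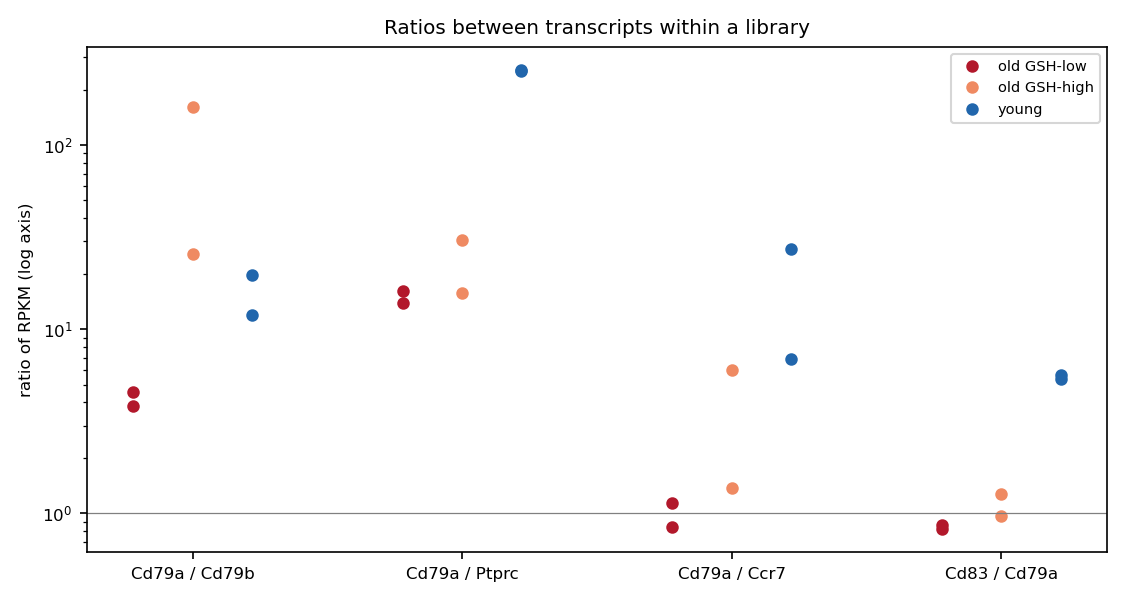
Ratio of RPKM between 2 genes within a library (vertical log axis), by gene pair (horizontal axis) and group. Cd79a over Cd79b lies below 5 in old GSH-low and above 10 elsewhere, and Cd83 over Cd79a lies above 5 in young cells alone.

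Ms4a1 (CD20; chromosome 19, 11249675 to 11266241, minus strand) had reads in old GSH-low alone, with 166 and 165 reads or 0.523 and 0.554 RPKM. In both old GSH-high and both young libraries the table holds 0.261 RPKM, which is exactly 0.5 times the lowest other value of the gene and was read as a replaced 0. With up to 3 reads allowed in each library at 0, Ms4a1 was at least 72.5-fold higher in old GSH-low relative to old GSH-high and at least 66.3-fold higher relative to young cells. The gene overlaps an antisense RNA gene, 4930526L06Rik, and the libraries are not stated to keep strand, so reads of the pair cannot be told apart.

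Ptprc (CD45; chromosome 1, 138062861 to 138175708, minus strand) is the transcript of the antigen that the sort selected against. It had 0.588 and 0.559 RPKM in old GSH-low, 0.0537 and 0.109 RPKM in old GSH-high and 0.00270 and 0.00279 RPKM in young cells. Since its annotated exons span 18313 bases, these low values are 553 and 493 reads in old GSH-low, 68 and 124 reads in old GSH-high and 3 reads in each young library. The groups did not overlap. Pooled over libraries, Ptprc in old GSH-low was 7.18 times the old GSH-high level (counting interval 6.15 to 8.42), and in old GSH-high 29.2 times the young level (13.2 to 80.5), where the young level rests on 6 reads. An RNA gene inside the locus, A130071D04Rik, overlaps it.

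Ccr7 (chromosome 11, 99144196 to 99155077, minus strand) had 8.30 and 9.17 RPKM in old GSH-low, 0.270 and 1.27 RPKM in old GSH-high and 0.0998 and 0.0258 RPKM in young cells. Those are 843 and 873 reads, 37 and 155 reads, and 12 and 3 reads. The groups did not overlap, but the old GSH-high libraries lay far apart, the second above the first. The pooled level in old GSH-low was 11.8 times that in old GSH-high (10.1 to 13.7, counting error only).

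Cd83 (chromosome 13, 43784775 to 43803132, plus strand) had another order. It had 7.73 and 6.70 RPKM in old GSH-low, 1.58 and 2.22 RPKM in old GSH-high and 3.72 and 3.97 RPKM in young cells, on 281 to 1021 reads per library. Old GSH-low was again highest, but young cells stood above old GSH-high with no overlap. Cd83 RPKM was 0.818 and 0.863 times Cd79a RPKM in old GSH-low, 0.971 and 1.28 times in old GSH-high and 5.40 and 5.66 times in young cells.

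In levels per length within old GSH-low, the genes fell into 3 tiers. Ccr7, Cd79a and Cd83 lay between 6.70 and 9.45 RPKM, with Cd79a overlapping Ccr7 and Cd83 just below both, Cd79b lay at 1.70 and 2.48 RPKM, and Ms4a1 and Ptprc lay between 0.523 and 0.588 RPKM. The tiers rest on the annotated exon lengths, with 18313 bases for Ptprc, 6187 for Ms4a1 and 1431 for Cd79b. In CPM, old GSH-low had more Ptprc (10.9 and 10.5) than Cd79b (3.59 and 2.49), and Ms4a1 (3.27 and 3.51) overlapped Cd79b. In young cells Cd83 was above Cd79a and the other 4 were at 12 reads or fewer per library. Summed over the 6 genes, levels were 68.5 and 64.3 CPM in old GSH-low, 8.01 and 13.1 CPM in old GSH-high and 10.5 and 11.1 CPM in young cells. The old GSH-high and young sums overlapped, with Cd83 holding most of the young sum.

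For all 6 genes both old GSH-low values exceeded the other 4, as was so for 15.5% of the genes tested, and both exceeded the 2 old GSH-high values, as was so for 25.7%. Since this difference chose the genes, nothing is read from those counts. Of the 6, 4 passed the filter of at least 1 RPKM in 2 libraries and entered the fit, and Cd79b passed through its old GSH-low values alone, so that it had to differ. Ccr7 reached 1 RPKM in just 1 library outside old GSH-low (1.27 RPKM in old GSH-high), so it also needed old GSH-low to pass. Ms4a1 and Ptprc stayed below the filter. On the fitted log2(RPKM + 1) scale, which shrinks changes of low genes, old GSH-low minus old GSH-high was 1.84 for Cd79a, 1.56 for Cd79b, 2.52 for Ccr7 and 1.51 for Cd83, and the median of all genes was -0.01. With limma-voom on the recovered reads, which adds no 1, the differences were 2.35, 5.98, 3.92 and 1.95 in the same order of genes. Across all genes 5.38% were called in this comparison, 3.69% as higher and 1.69% as lower. Old GSH-low minus young, which shares the old GSH-low libraries, was 2.50 for Cd79a, 1.55 for Cd79b, 3.19 for Ccr7 and 0.76 for Cd83, in a comparison where 36.8% of all genes were called.

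The comparison of old GSH-high with young cells did not choose the genes, though it shares the old GSH-high libraries with the one that did. It sets the bright part of old cells, with 2 animals pooled per library, against the whole young population, with 1 animal per library. Age, gate and pooling thus cannot be told apart in it. Cd79a rose by 0.66 ± 0.11 on the log2 scale (SE; limma, Benjamini-Hochberg adjusted p = 0.00248), which is 2.41 times the young level in pooled reads (1.95 to 3.0). Cd83 fell by 0.75 ± 0.12 (limma, adjusted p = 0.00261), to 0.490 times the young level (0.444 to 0.540). Both held their call in every alternative that was run, each library left out included.

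Ccr7 was higher in both old GSH-high libraries than in both young libraries but did not pass, at 0.68 ± 0.22 (limma, adjusted p = 0.0524). Its value turned on the second old GSH-high library: it was 1.09 (adjusted p = 0.00126) without the first library and 0.26 (adjusted p = 0.228) without the second. With limma-voom on the recovered reads it was 3.35 (adjusted p = 0.0157), with 0.1 in place of the added 1 it was 2.17 (adjusted p = 0.0158), and other alternatives gave adjusted p between 0.0412 and 0.127. Cd79b had a difference of -0.01 ± 0.13 (limma, adjusted p = 0.962), and its pooled ratio of 0.798 had a counting interval of 0.246 to 2.52, so that 7 reads against 8 show no direction. Without the filter, Ptprc had a difference of 0.11 (limma, adjusted p = 0.383), a scale on which 0.109 RPKM hardly differs from 0, and Ms4a1 had 0 reads on both sides. So 2 of the 4 genes tested were called, 1 in each direction, where 28.8% of all genes were called, 15.1% as higher and 13.7% as lower. Cd79a, Ptprc and Ccr7 were higher in old GSH-high with no overlap (32.4% of the genes tested), and Cd83 was lower with no overlap (33.7%). Ptprc lay below the filter, outside the genes behind these shares.

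Other genes of B cells were counted from a list of 57, of which 30 are in the table and 23 passed the filter. Of those 23, 9 rose and 1 fell in old GSH-low relative to old GSH-high (limma, adjusted p under 0.05), but 7 of the 9 had passed through old GSH-low alone and so had to differ. Of the 16 others 2 rose, Ly6d and Ebf1, and 1 fell, Cd38. Ly6d also needed old GSH-low to pass, since it reached 1 RPKM in just 1 library outside it (1.19 RPKM in old GSH-high). Without the filter 15 of 30 rose and 1 fell. The median over the 23 was 0.15. Between old GSH-high and young cells 5 rose and 4 fell, with a median of 0.02, and between old GSH-low and young cells 12 rose and 5 fell, with a median of 0.52. Over all genes the medians were -0.01, -0.0037 and -0.02 and the shares called 5.38%, 28.8% and 36.8% in these comparisons.

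Surface and co-receptor genes made up 11 of those 30, and 9 were tested. Of these, 6 passed the filter through old GSH-low alone. Of the 3 others 1 rose (Ly6d, which also needed old GSH-low to pass) and 1 fell between the old fractions. Fcmr, the receptor for the constant part of IgM, had 249 and 214 reads in old GSH-low, 0 and 5 reads in old GSH-high and 0 reads in both young libraries. It is one of the 6 that passed through old GSH-low alone, with a fitted difference of 1.83. Fcmr thus resembled Ms4a1 and Cd79b in being near 0 outside old GSH-low.

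Ly6d is a surface protein that marks early B-lineage precursors in mice. It had 161 and 203 reads in old GSH-low, 7 and 55 reads in old GSH-high and 0 and 8 reads in young cells. Its fitted difference was 1.90 ± 0.26, given without a p-value since Ly6d needed old GSH-low to pass the filter. Cd37, a tetraspanin of B cells, had 328 and 247 reads in old GSH-low, 21 and 33 reads in old GSH-high and 12 and 8 reads in young cells, and a fitted difference of 1.23. Like Cd37, which passed through old GSH-low alone, Fcer2a (the low-affinity IgE receptor), Fcgr2b (the inhibitory IgG receptor) and Cd72 (an inhibitory co-receptor) had to differ, and did so by 0.63 to 0.99. Cd38, an ectoenzyme that consumes NAD and is not restricted to B cells, fell by 0.65 ± 0.13 (limma, adjusted p = 0.0232), the one fall in the list. Cd24a, a surface protein shared by many precursor cells, did not pass between the old fractions and fell by 1.17 in old GSH-high relative to young cells, where Cd38 rose by 0.80 and the other 7 did not pass.

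Cd22, an inhibitory receptor of B cells that was below the filter, had 217 and 210 reads in old GSH-low, 35 and 11 reads in old GSH-high and 1 and 0 reads in young cells. Btla, an inhibitory receptor of B and T cells, had 167 and 112 reads in old GSH-low, 110 and 98 reads in old GSH-high and 1 and 0 reads in young cells. The immunoglobulin genes Ighm, Ighd and Igkc and the B-cell genes Pax5, Cr2 and Cd40 were not among the 12067 gene symbols.

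**Figure D3:**
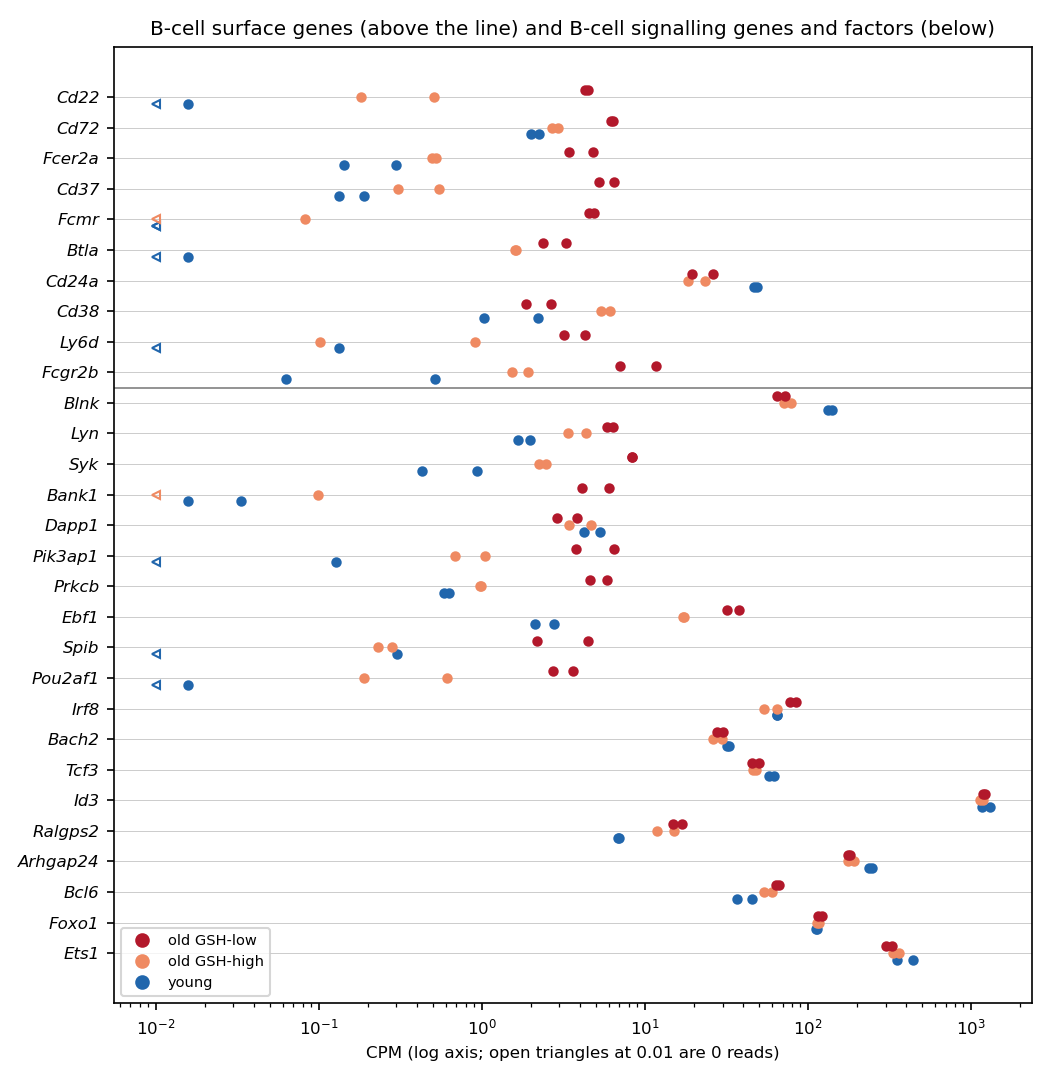
CPM (horizontal log axis) of 29 B-cell genes of the table other than the 6, with surface genes above the line and signalling genes and factors below it; each point is a library, and open triangles mark 0 reads. Among surface genes Cd22, Cd37 and Fcmr lie far to the right in old GSH-low, while Id3 and Foxo1 lie at similar levels in every library.

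Signalling genes and transcription factors made up the other 19, of which 14 were tested, with a median of 0.03 between the old fractions. Ebf1, the early factor that sets up the B lineage and is also expressed by fat and stromal cells, had 1911 and 1503 reads in old GSH-low, 1180 and 1052 reads in old GSH-high and 133 and 166 reads in young cells. It rose by 0.71 ± 0.10 between the old fractions (limma, adjusted p = 0.00436) and by 1.13 ± 0.10 in old GSH-high relative to young cells (limma, adjusted p = 0.000117). Pou2af1, the B-cell partner of octamer-binding factors, had 185 and 129 reads in old GSH-low, 13 and 37 reads in old GSH-high and 1 and 0 reads in young cells, and a fitted difference of 0.95, having passed the filter through old GSH-low alone. No other of the 14 passed between the old fractions.

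Blnk, the adaptor that links SYK to downstream signals, was lower in both old groups than in young cells and had many reads in each library. These were 3657 and 3048 reads in old GSH-low, 5406 and 4336 reads in old GSH-high and 8910 and 8035 reads in young cells. Blnk fell by 0.88 ± 0.10 in old GSH-high relative to young cells (limma, adjusted p = 0.000279). Arhgap24, a regulator of RAC, fell by 0.44 and Lyn, a SRC-family kinase of the receptor, rose by 0.41 in the same comparison. Of the genes below the filter, Bank1, a scaffold of B-cell signalling, had 304 and 194 reads in old GSH-low, 0 and 6 reads in old GSH-high and 1 and 2 reads in young cells, and Syk, the kinase that binds Igα and Igβ, had 425 and 390 reads, 171 and 136 reads, and 27 and 56 reads in the same order of groups. Bank1 was thus near 0 outside old GSH-low, and Syk was not.

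Plasma cell genes, the antibody-secreting stage, had 3 of 13 in the table and 0 called between the old fractions (1 at an unadjusted p under 0.05, 1 by limma-voom), with sums of 1428 and 1553 CPM in old GSH-low, 1550 and 1604 CPM in old GSH-high and 1564 and 1496 CPM in young cells. The 3 were Sdc1, Xbp1 and Txndc5, which many cell types express.

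Genes around CCR7 were counted from a list of 18 ligands and homing genes, of which 9 were tested. Of these, 2 passed the filter through old GSH-low alone, and of the 7 others 2 rose and 1 fell between the old fractions. Ccl21a, a CCR7 ligand made by lymphatic vessels and lymphoid stroma, had 447 and 463 reads in old GSH-low, 88 and 98 reads in old GSH-high and 105 and 54 reads in young cells, and rose by 2.13 ± 0.17 (limma, adjusted p = 0.000149). It has near-identical copies in the mouse genome, among which the counting could split or drop reads. Ccl19, the other ligand, was not called between the old fractions. It had 33.6 and 41.4 RPKM in old GSH-low, 31.3 and 29.6 RPKM in old GSH-high and 40.4 and 31.9 RPKM in young cells. Ltb (lymphotoxin beta, a lymphocyte cytokine), which passed through old GSH-low alone, had a fitted difference of 1.04. Cxcl12 (the ligand of CXCR4) rose by 0.74, while S1pr1, the receptor by which lymphocytes leave lymphoid tissue and which endothelium also makes, fell by 0.84. Of 18 costimulation and activation genes set beside CD83, 9 were tested and 0 were called between the old fractions (2 at an unadjusted p under 0.05, 0 by limma-voom), with a median of 0.14. Icosl, the ligand of ICOS on antigen-presenting cells, fell by 0.60 in old GSH-high relative to young cells, the same direction as Cd83 there, Nfkbia fell by 0.35 and Cd44 rose by 0.33.

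Lists of other leukocyte and tissue genes were counted in the same way. Of 12 pan-leukocyte genes tested 5 had passed the filter through old GSH-low alone, among them Cd69, an early activation antigen of lymphocytes, with a fitted difference of 1.13. Of the 7 others 4 rose between the old fractions and 0 fell, led by Laptm5 (1.81), Cd53 (1.63) and Coro1a (1.51). Outside old GSH-low, Laptm5, Cd53 and Coro1a reached 1 RPKM in the second old GSH-high library alone (1.32, 1.18 and 1.14 RPKM). They thus also needed old GSH-low to pass the filter, and nothing is read from their rise. The summed level of the list was 348.5 and 343.8 CPM in old GSH-low, 199.6 and 219.3 CPM in old GSH-high and 133.9 and 123.8 CPM in young cells. Lsp1 held 6444 and 5589 of the 8449 and 7434 reads of the list in young cells. The pan-leukocyte genes rose in 9 of 12 in old GSH-high relative to young cells, led by Arhgdib (1.46), Srgn (1.41), Coro1a (0.88) and Cd53 (0.84). MHC class II genes, with which B cells and other antigen-presenting cells show peptides to T cells, had 7 tested, of which 3 had passed through old GSH-low alone. The 4 others rose between the old fractions, Cd74 by 2.63, and the list summed to 353.7 and 324.8 CPM in old GSH-low, 47.2 and 65.9 CPM in old GSH-high and 12.7 and 9.91 CPM in young cells.

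T-cell genes had 5 of 27 in the table, and 4 were tested, 3 of which had passed through old GSH-low alone. Of those 3, Cd2 had 114 and 115 reads in old GSH-low, 8 and 17 reads in old GSH-high and 0 and 2 reads in young cells, with a fitted difference of 1.06, and Ctla4 had one of 0.75. Lck, the last of those 3, had 1.11 and 1.13 RPKM in old GSH-low and 0.533 and 0.701 RPKM in old GSH-high and was not called. The other tested gene, Tcf7, did not pass. The list summed to 26.6 and 31.0 CPM in old GSH-low, 18.6 and 21.2 CPM in old GSH-high and 14.9 and 15.6 CPM in young cells. Most of these reads were of Tcf7, with 878 and 1023 of 1346 and 1456 reads in old GSH-low. It held 1153 and 1086 of 1278 and 1289 reads in old GSH-high, and 911 and 923 of 939 in each young library. Cd3e was not among the 12067 gene symbols. Of 4 genes of natural killer and cytotoxic cells Il2rb, with a fitted difference of 0.83, had passed through old GSH-low alone and the other 3 were not called, and the sums were 12.6 and 12.5 CPM in old GSH-low, 6.57 and 5.61 CPM in old GSH-high and 11.3 and 9.71 CPM in young cells. Ccl5 held 660 and 520 of the 711 and 583 reads of that list in young cells. Of 6 dendritic cell genes 1 rose, Cst3 by 0.94, a protease inhibitor secreted by many cell types, which held 34896 and 33173 reads in old GSH-low, and the sums of that list were 1613 and 1661 CPM in old GSH-low, 1354 and 1369 CPM in old GSH-high and 1193 and 1278 CPM in young cells.

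Macrophage, monocyte and neutrophil genes had overlapping sums in the old fractions. Of 9 tested, 0 rose and 1 fell (C1qa, by 0.41), and the sums were 88.0 and 84.5 CPM in old GSH-low, 84.2 and 92.8 CPM in old GSH-high and 17.6 and 18.7 CPM in young cells. In old GSH-high relative to young cells 9 of 9 rose, led by S100a9 (2.90), Lyz2 (2.53), S100a8 (2.31) and C1qb (1.81). Of 3 erythrocyte genes 0 were called between the old fractions (0 at an unadjusted p under 0.05, 0 by limma-voom) and 3 rose in old GSH-high relative to young cells, with sums of 16.0 and 6.94 CPM in old GSH-low, 8.35 and 8.78 CPM in old GSH-high and 1.57 and 1.52 CPM in young cells. Adgre1 was not among the 12067 gene symbols.

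Of 10 endothelial genes 9 fell in old GSH-low relative to old GSH-high, with sums of 106.4 and 86.9 CPM in old GSH-low, 315.8 and 316.7 CPM in old GSH-high and 133.0 and 160.5 CPM in young cells. Genes of fibro-adipogenic and tendon cells rose in 8 of 10 and fell in 1 (Ly6a, which encodes Sca1, by 2.03), with sums of 12418 and 10683 CPM in old GSH-low, 3710 and 3143 CPM in old GSH-high and 299.3 and 388.1 CPM in young cells. Of 11 muscle stem cell genes 1 rose between the old fractions, Pax7 by 0.46, and the sums were 8711 and 8347 CPM in old GSH-low, 9666 and 9453 CPM in old GSH-high and 9735 and 9601 CPM in young cells. In the young libraries 2 and 4 of the 11 B-cell surface genes, 2 and 1 of the 5 T-cell genes and 2 of the 18 pan-leukocyte genes in each were at 0 reads, as were 0 of the macrophage and 0 of the endothelial genes. So were 0 and 3 of the 19 B-cell signalling genes, 1 of the 5 natural killer genes in each and 1 and 0 of the 3 erythrocyte genes. Over all 12067 genes 65 and 72 were at 0 reads in the young libraries, 24 and 19 in the old GSH-high libraries and 25 in each old GSH-low library. Of the list genes among these 12067, 0 were at 0 reads in old GSH-low. In old GSH-high the B-cell surface, B-cell signalling and T-cell lists had 1 and 0 such genes each, and the natural killer list had 0 and 1. The part of any of these cell types in the levels of the 6 genes was not tested.

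**Figure D4:**
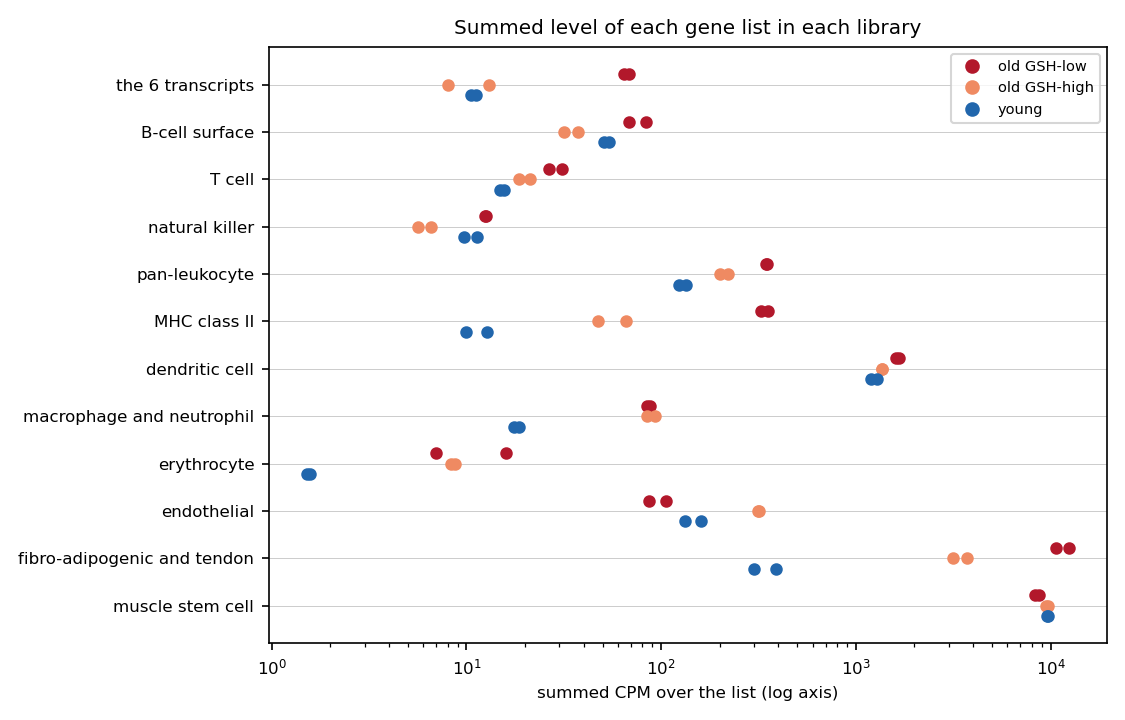
Summed CPM (horizontal log axis) of lists of cell type genes, with a point for each library and colours for the groups. The 6 transcripts, the B-cell surface list and the MHC class II list stand highest in old GSH-low. So do the T-cell, natural killer, pan-leukocyte, dendritic cell and fibro-adipogenic and tendon lists. In young cells single genes hold most reads of some lists. Cd24a has 2962 and 2939 of the 3199 and 3257 B-cell surface reads there, and Tcf7 has 911 and 923 of 939 T-cell reads per library. Ccl5 has 660 and 520 of 711 and 583 natural killer reads, and Lsp1 has 6444 and 5589 of 8449 and 7434 pan-leukocyte reads. Macrophage and neutrophil genes overlap between the old fractions, and endothelial genes are lowest in old GSH-low. The B-cell signalling list is not drawn and summed to 2217 and 2191 CPM in old GSH-low, 2184 and 2071 CPM in old GSH-high and 2375 and 2324 CPM in young cells.

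The genes whose levels followed the 6 transcripts most closely over the libraries were sought among the 1079 genes that spanned at least 1 on the log2(RPKM + 1) scale, with Pearson r to the mean of the standardised profiles over 6 libraries that fall into 3 groups. This is a description, and shared groups, pools and depth enter every value. The 10 highest included Ucn2 (r = 0.999), Mstn (0.998), Fcmr (0.998), Cd37 (0.997), H2-DMb2 (0.997), Cd69 (0.996), Il21r (0.995), Bglap2 (0.995) and Cd2 (0.994). All 10 passed the filter through old GSH-low alone, the group whose high values chose the 6 transcripts, so their closeness was partly built in. Among them Fcmr, Cd37, H2-DMb2, Cd69, Il21r (the interleukin-21 receptor) and Cd2 are known from lymphocytes or antigen-presenting cells. Mstn (myostatin, which restrains muscle growth), Ucn2 (a peptide of the urocortin family) and Bglap2 (osteocalcin, of bone-forming cells) are better known from other tissues. Mstn had 3.32 and 2.67 RPKM in old GSH-low, 0.0855 and 0.239 RPKM in old GSH-high and 0.0730 and 0.0566 RPKM in young cells. In all, 62 of the 1079 genes reached r of at least 0.95 and 13 reached 0.99.

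The 6 genes were not equally close to their own mean. Cd79b (0.993), Ms4a1 (0.992) and Ptprc (0.991) lay nearest, Ccr7 (0.977) and Cd79a (0.970) next and Cd83 (0.857) farthest. Cd83 alone had 3 genes at r of at least 0.95, against 49 to 136 for the other 5. The nearest to Cd83 included Rgs2 (0.971), a brake on G protein signalling, and Acta1 (0.962), the skeletal muscle actin. Rgs2 shared the order of Cd83, with 15.5 and 14.8 RPKM in old GSH-low, 6.03 and 6.70 RPKM in old GSH-high and 9.80 and 8.11 RPKM in young cells.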

How the data were processed

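RNA of 6 libraries from sorted muscle stem cells was measured, 2 in each of 3 groups. Per the labels, cDNA was primed with oligo(dT) and sequenced from one end over 150 bp, to 68 to 98 M reads. Per the submitters' processing notes the tools were edgeR, Trim Galore, Subread's featureCounts and STAR on GRCm38 (mm10). Tool versions and strand setting are not given in the sources used here. The authors deposited RPKM values for 12067 genes, and every column belongs to one of the 6 libraries.

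Whole reads were recovered from RPKM with GENCODE M21 exon lengths, which gave whole numbers (within 0.02 reads plus a relative 3e-07) for 97.8% of genes, the rest through ratios between libraries. The table holds no 0: 230 values in 144 genes equal 0.5 times the lowest other value of the gene and were read as 0 reads. Genes with at least 1 RPKM in 2 libraries (10609) were fitted as log2(RPKM + 1) with limma-trend (limma 3.58.1, R 4.3.3) in a means model of the 3 groups, two-sided, and called at a Benjamini-Hochberg adjusted p under 0.05 over all genes tested. The fit was tested on simulated data. Other steps used matplotlib 3.10.9, scipy 1.17.1, numpy 2.4.6 and pandas 2.3.3 in Python 3.11.15. Intervals of reads (exact Poisson) and of read ratios (Clopper-Pearson) cover counting error only.

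The 6 genes, the 15 lists and the tests were chosen with earlier results of these data known. Named genes are the 6, up to 4 called genes per list and comparison by size of change, a few chosen after their values were seen (Cd22, Btla, Bank1, Syk, Fcer2a, Fcgr2b, Cd72, Id3, Foxo1, Lck, Ccl19, Tcf7, Ccl5, Lsp1) and the genes most alike in pattern (the 10 highest). One gene of these lists is counted but not reported here. Alternatives were limma-voom on recovered reads, other scalings, filters and pseudocounts, a replicate block, the libraries of a comparison alone, each library left out and, chosen after seeing the data, replaced zeros set to 0.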

Additional observations from a re-analysis of the deposited data

How the results depend on the processing

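Old GSH-low stood above old GSH-high and young cells for Cd79a, Cd79b, Ccr7 and Cd83 under every alternative, and the calls of Cd79a and Cd83 between old GSH-high and young cells held throughout. The difference of Cd79b between old GSH-high and young cells turned positive without old GSH-high replicate 1 (0.029) and without young replicate 1 (0.0040), in a range of -0.051 to 0.029 over the libraries left out, never near the threshold.

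Counts of calls moved more. Between the old fractions 571 genes were called, 864 with the 4 libraries alone, and 312 to 863 with each library left out. Between old GSH-high and young cells 3051 were called, and 1493 to 3802 with each library left out. Between old GSH-low and young cells 3901 were called, and 2068 to 4295. B-cell genes other than the 6 numbered 10 called between the old fractions, 16 without the filter and 16 with at least 0.5 RPKM, where more genes were tested, and 8 to 10 with each library left out. Between old GSH-high and young cells they numbered 9, and 5 to 9. The cause of the other moves was not tested.

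Libraries of different groups share replicate numbers. Over all genes tested, same-numbered libraries did not deviate together, with r = 0.07 between the old fractions. The r was -0.142 between old GSH-high and young cells and -0.263 between old GSH-low and young cells. The numbers were therefore not used as pairs. An r over all genes cannot show whether same-numbered old libraries came from the same animals. With the number as a block over all libraries 479, 2559 and 3350 genes were called in these comparisons, and with the block in the old libraries alone 1067 between the old fractions. The old libraries alone without a block gave 864. Under the block over all libraries Ccr7 passed between old GSH-high and young cells (limma, adjusted p = 0.0412).

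Depth limits Cd79b and Ms4a1 outside old GSH-low and Ptprc in young cells, where each library has 6 reads or fewer.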
